A study of Mus musculus with 12 samples.

Results

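Messenger RNA of the glutathione and antioxidant enzymes was compared between the proximal small intestine of 6 control mice and 6 mutant mice. The members were every row of the deposited expression table whose name belongs to the glutathione peroxidases, glutathione transferases, microsomal glutathione transferases, peroxiredoxins, thioredoxin-named genes, superoxide dismutases, catalase, the enzymes of glutathione synthesis, and Nqo1, Srxn1, Nfe2l2 and Keap1. These names took in 74 of 18090 rows, and no row was chosen by its values. They stood for 73 genes, since the rows TXNL4 and TXNL4A both led to Txnl4a. The rule by name also took in thioredoxin-named proteins that are not antioxidant enzymes, such as the splicing factors Txnl4a and Txnl4b. All mice had a mixed C57/BL6;129Ola background and were labelled P6. The mutants were villinCre;Shp2fl conditional mutants, in which a Cre recombinase under the villin promoter, active in the intestinal epithelium, acts on a floxed allele of Ptpn11, the gene of the phosphatase Shp2. The labels call the other mice control and say no more of their genotype. RNA came from a whole piece of gut, so cells in which villin-driven Cre is not active, such as muscle, stroma and blood, were read together with the epithelium, and fewer cells of a type cannot be told apart from less RNA per cell.

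Glutathione is the main small thiol of the cell. Glutamate-cysteine ligase (Gclc and Gclm) and glutathione synthetase (Gss) make it, the glutathione peroxidases spend it to reduce peroxides, and the glutathione transferases couple it to reactive compounds. Peroxiredoxins reduce peroxides with electrons that come mostly from thioredoxin, which thioredoxin reductases recharge with NADPH, and superoxide dismutases supply the hydrogen peroxide that all of these and catalase remove. The transcription factor Nrf2 (gene Nfe2l2), held in check by Keap1, drives many of these genes through the antioxidant response element. In the gut these enzymes meet food-borne compounds, microbial products and oxidants of inflammation.

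Levels below are deposited array intensities in arbitrary units, which can lie under 0 because background had been subtracted. A level at or under 27.8, which is how far the lowest deposited value reaches under 0, is called here within the noise limit. Differences are mutant minus control on a log2 scale after an offset of 50, with the standard error (SE) of the limma fit and an adjusted p over all 18090 rows, and the threshold is an adjusted p of 0.05. The targeted gene Ptpn11 read 1288 ± 124 in controls and 1498 ± 119 in mutants (SD, n = 6 each, limma adjusted p = 0.0763), so its row does not show a loss of transcript, and the place of the probe on the transcript is not known here. Pancreatic acinar transcripts were highest in control 4 and mutant 1, whose sums over 17 rows were 109064 and 76201. The remaining controls had 3419 to 17851 and the remaining mutants 15738 to 22202. The medians of all controls and all mutants were 4944 and 17970. Of the 11 enterocyte rows measured, Fabp1, Fabp2 and Akp3 lay within the noise limit in every mouse, while Vil1 read 9101 ± 1121 and 8714 ± 990.

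Of the 74 rows, 10 rose in the mutants and 4 fell, so 18.9% passed the threshold against 9.19% of all rows. Over all rows 4.71% rose and 4.48% fell. The members' median log2 difference was 0.04 and that of all rows was -0.01. The groups did not overlap in 9 member rows (12.2%), against 4.69% of all rows. The risers were Gpx1, Gpx2, Gstp1, Gstk1, Gstt1, Gstt3, Mgst2, Mgst3, Prdx4 and Sod3, and those that fell were Gpx3, Gsto2, Txnrd2 and Tmx4. In 15 rows both group means lay within the noise limit, among them Gclc. At least 1 group mean lay above it in 59 of 74 member rows but only in 10202 of 18090 rows in all, so the members also differ from all rows in how many could be measured. Of those 59 members 23.7% passed, against 15.7% of those 10202 rows. For the 9 members whose groups did not overlap the exact permutation test over all 924 assignments of mice gave 0.00216 (two-sided). This is the smallest p it can give, and full separation of the groups fixes it, so it adds nothing to the lack of overlap. For the other called members it gave 0.00433 (Gpx1, Gpx3, Gstt1 and Gstt3) and 0.00649 (Mgst3). Without control 4 and mutant 1, 13 members passed, 10 higher and 3 lower.

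**Figure D1:**
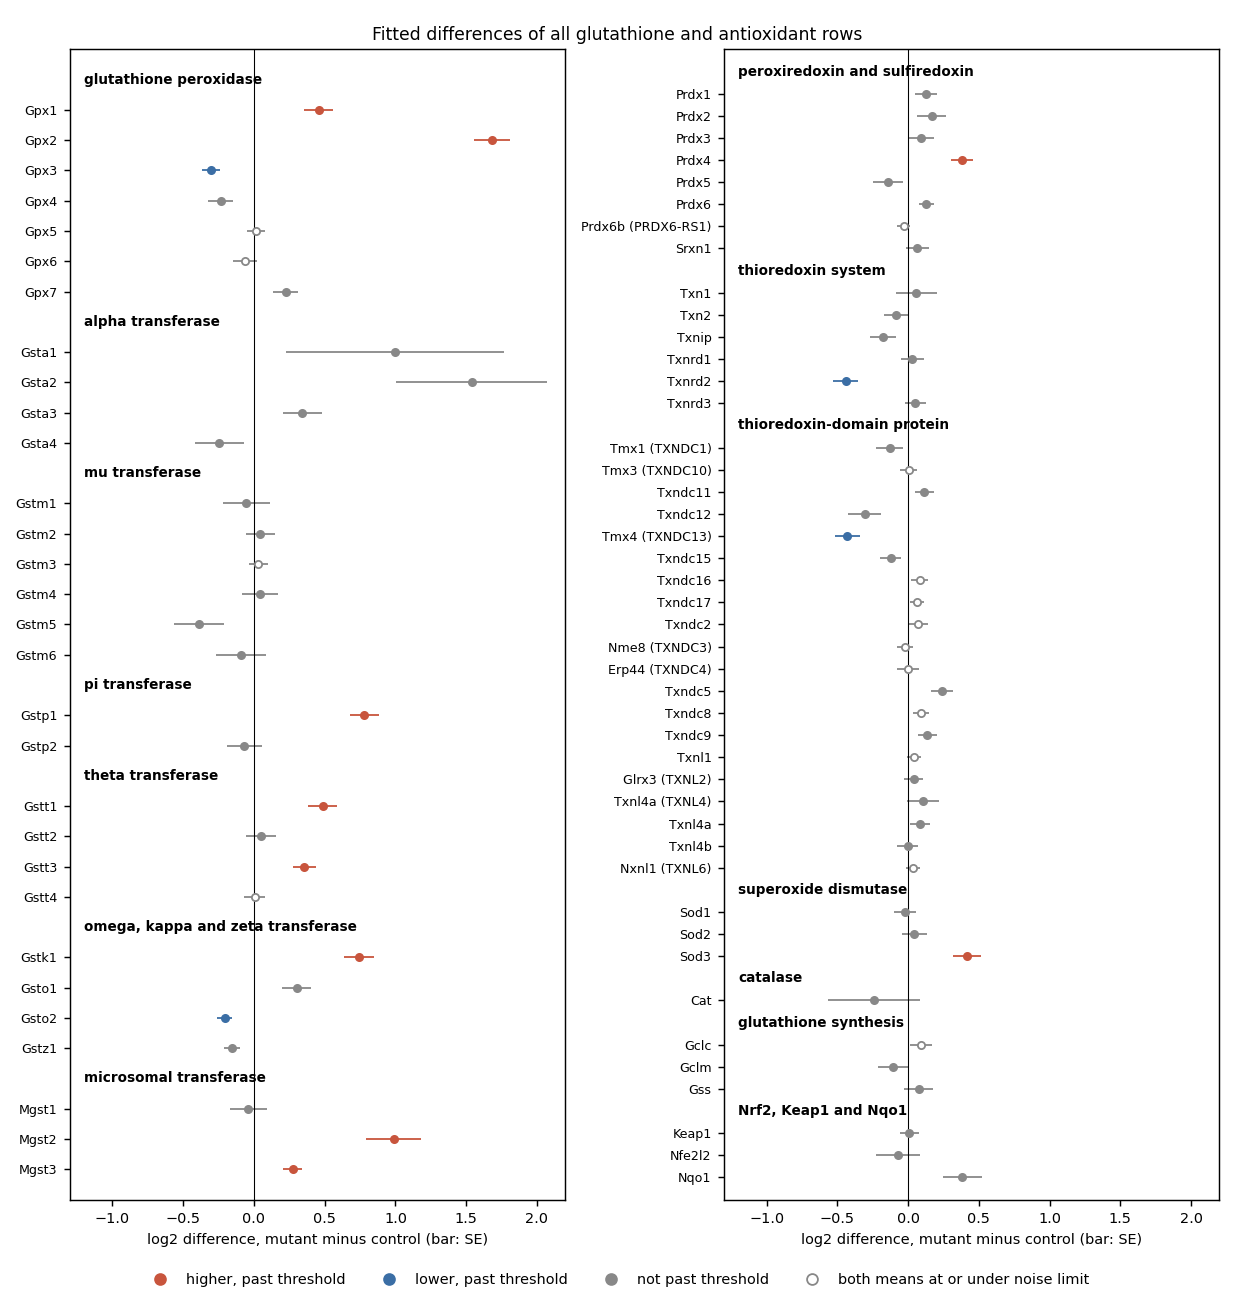
Fitted log2 differences (mutant minus control, horizontal axis) with their SE for all 74 rows, grouped by enzyme family. Gpx2 stands furthest to the right among called rows at 1.68, Gsta1 and Gsta2 have the widest bars, and 15 rows with both means within the noise limit are drawn open.

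The glutathione peroxidases split by member. Gpx2, the peroxidase typical of the gastrointestinal epithelium, had the largest fitted log2 difference of all members. By the ratio of mean intensities Gsta1 (4.83) and Gsta2 (5.31), neither of them called, stood higher. The level of Gpx2 ran from 2031 to 3278 in controls (median 2613) and from 6556 to 11177 in mutants (median 8756). Every mutant lay above every control, the lowest mutants being mutant 2 (6556) and mutant 4 (7568). The mean rose 3.30-fold, from 2638 ± 439 to 8703 ± 1590 (log2 difference 1.68, SE 0.13, limma adjusted p = 2.43e-06). The promoter of Gpx2 is shown because this row moved most on the fitted scale. Like the promoters further on, it runs 5′ to 3′ on the gene's strand, from 250 bases before the gene's start to 50 after it (RefSeq, GRCm38.p6), and capitals mark matches on either strand to the loose antioxidant response element TGANNNNGC. It lies at chr12:76795505-76795804 on the minus strand.
Gpx2: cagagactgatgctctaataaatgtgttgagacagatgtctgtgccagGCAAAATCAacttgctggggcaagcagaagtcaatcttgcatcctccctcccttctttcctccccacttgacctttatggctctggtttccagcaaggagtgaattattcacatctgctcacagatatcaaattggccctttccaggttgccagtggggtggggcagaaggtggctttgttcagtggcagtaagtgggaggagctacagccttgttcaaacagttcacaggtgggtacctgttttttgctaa
The only match begins at position -202 from the start, on the reverse strand.

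Gpx1, the widely expressed cytosolic peroxidase, ran from 10450.4 to 13269 in controls (median 11242) and from 12694 to 20437 in mutants (median 15970). Control 4 lay above mutant 2, and otherwise the groups were apart. Its mean rose 1.40-fold, from 11457 ± 1002 to 16056 ± 2807 (log2 difference 0.46, SE 0.10, adjusted p = 0.0113). Gpx3, the peroxidase secreted into plasma and extracellular fluid, was the brightest member and fell. It ran from 23820 to 30038 in controls (median 28142) and from 19939 to 23820 in mutants (median 22394), the highest mutant sharing its value with the lowest control, and its log2 difference was -0.30 (SE 0.07, adjusted p = 0.0101). Its 12 values took only 8 distinct levels. Such ties are common among bright rows here: of the values of the 500 brightest rows in each array, 82.8% to 84.8% recurred among those of another array, so differences at this brightness are steps between shared values. Gpx4, which reduces lipid hydroperoxides in membranes, read 1806 ± 160 and 1531 ± 240 and did not pass (log2 difference -0.24, SE 0.09, adjusted p = 0.134), though without mutant 2 it did (adjusted p = 0.0375). Gpx7, a peroxidase of the endoplasmic reticulum, read 319.2 ± 25.5 and 389.8 ± 68.9 (adjusted p = 0.142). Gpx5 and Gpx6 lay within the noise limit on average in both groups.

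**Figure D2:**
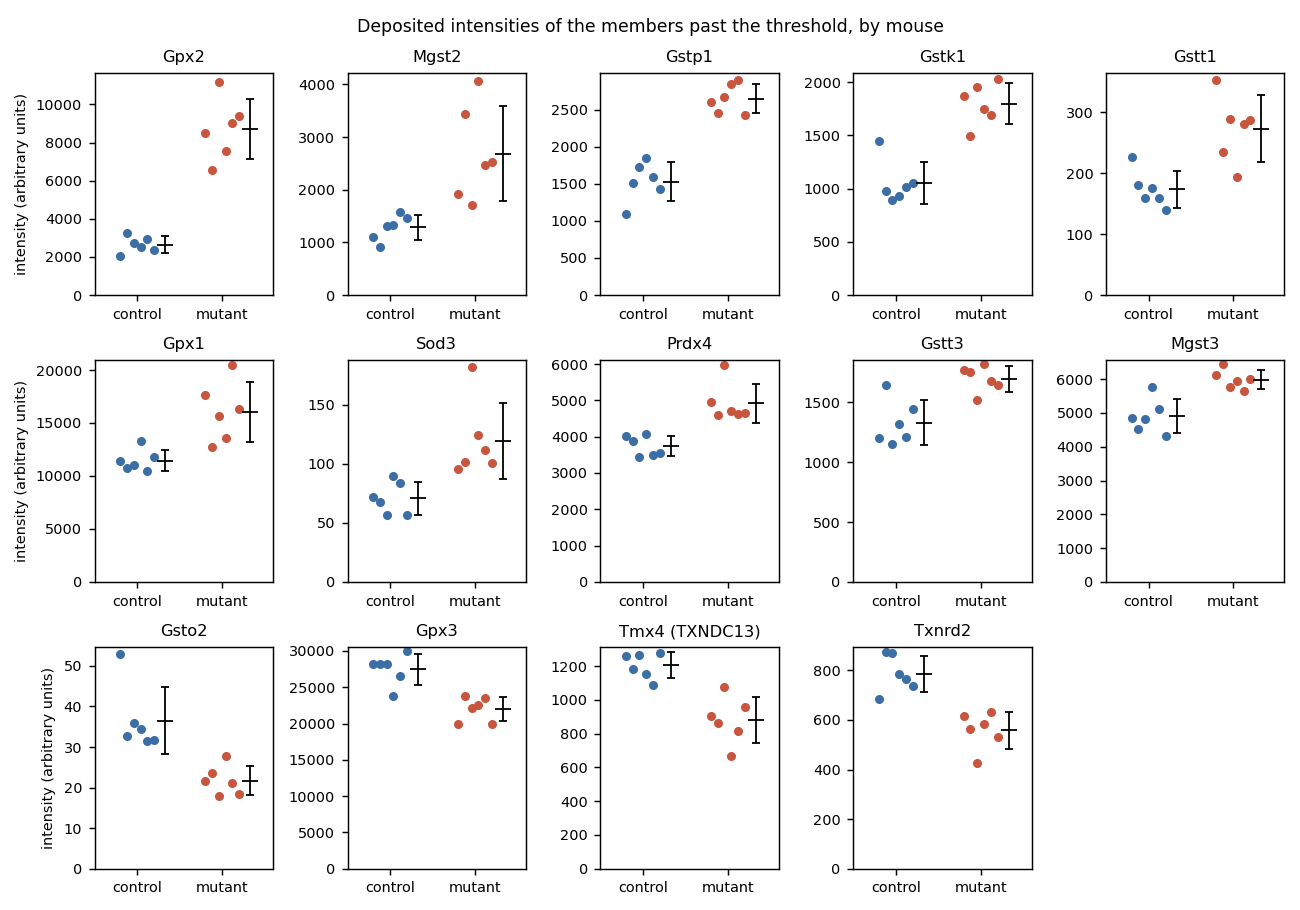
Deposited intensity (vertical axis, from 0) of the 14 members past the threshold, with 1 point per mouse and the mean ± SD of 6 mice beside each group. Points of the groups are fully apart for 9 of the 14, among them Gpx2, Mgst2, Gstp1 and Gstk1.

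Among the 23 transferase rows 6 rose and 1 fell (30.4%, against 9.19% of all rows). Of the 21 with a group mean above the noise limit 33.3% passed, against 15.7% of all such rows. The pi class gave a contrast between neighbouring genes. Gstp1, a cytosolic transferase with a broad range of substrates, ran from 1097 to 1850 in controls (median 1549) and from 2431 to 2904 in mutants (median 2640.3). No mutant overlapped a control, and the mean rose 1.73-fold (log2 difference 0.78, SE 0.10, adjusted p = 0.00039). Gstp2, its close paralog beside it on the chromosome, ran from 1525 to 2294 in controls and from 1388 to 2608 in mutants. The range of the mutants enclosed that of the controls, and the difference did not pass (-0.07, SE 0.13, adjusted p = 0.839). The difference between the responses of the paralogs was not tested, and transcripts this alike can bind each other's probes, so the split between these rows is uncertain. Both promoters are shown because the rows of these neighbours read differently. They are at chr19:4037863-4038162 and chr19:4042172-4042471 on the minus strand.
Gstp1: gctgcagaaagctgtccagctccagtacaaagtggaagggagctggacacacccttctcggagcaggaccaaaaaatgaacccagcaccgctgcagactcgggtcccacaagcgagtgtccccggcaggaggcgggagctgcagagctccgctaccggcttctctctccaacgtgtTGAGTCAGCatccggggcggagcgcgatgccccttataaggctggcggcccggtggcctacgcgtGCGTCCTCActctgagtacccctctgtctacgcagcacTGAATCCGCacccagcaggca
Gstp2: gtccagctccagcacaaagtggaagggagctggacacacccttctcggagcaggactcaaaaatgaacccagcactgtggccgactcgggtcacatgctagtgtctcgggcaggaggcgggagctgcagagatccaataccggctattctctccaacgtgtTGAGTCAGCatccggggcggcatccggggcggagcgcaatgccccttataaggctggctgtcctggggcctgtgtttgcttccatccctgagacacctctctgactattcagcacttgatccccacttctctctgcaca
Aligned end to end, 242 of 316 columns were identical (76.6%). Both hold TGAGTCAGC, at -74 in Gstp1 and at -89 in Gstp2. Gstp1 has further matches to the loose element at -9 and at 29, which Gstp2 lacks.

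In the kappa, theta, omega and zeta classes Gstk1, Gstt1 and Gstt3 rose and Gsto2 fell. Gstk1, the transferase of mitochondria and peroxisomes, ran from 894.1 to 1446 in controls (median 998.6) and from 1490.4 to 2025 in mutants (median 1809). The groups did not overlap, control 1 being the highest control, and the mean rose 1.71-fold (log2 difference 0.74, SE 0.10, adjusted p = 0.000615). Gstt1, a theta-class enzyme that acts on small halogenated compounds, ran from 138.8 to 226.4 in controls (median 167.1) and from 193.1 to 353.1 in mutants (median 284.6). Only control 1 (226.4) and mutant 4 (193.1) crossed over, and the log2 difference was 0.49 (SE 0.11, adjusted p = 0.0105). Gstt3, of the same class, ran from 1153 to 1645 in controls and from 1521 to 1820.1 in mutants. The groups overlapped at control 2 and mutant 3, and the log2 difference was 0.36 (SE 0.08, adjusted p = 0.0126). Gstt2 read 546.5 ± 58.2 and 571.9 ± 110.4 (adjusted p = 0.863), and Gstt4 lay within the noise limit.

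Gsto1, an omega-class enzyme and the brightest transferase, read 10349.7 ± 1054 in controls and 12867 ± 1877 in mutants, and did not pass (log2 difference 0.30, SE 0.10, adjusted p = 0.0786). Mutant 4, at 9877, was the lowest mutant, and without it the difference passed (adjusted p = 0.013). Gsto2 was dim. All 6 controls lay above the noise limit, from 31.4 to 52.9, and all 6 mutants at or under it, from 17.9 to 27.8, so the geometric mean of the controls was at least 1.29-fold higher than the mutants. The log2 difference was -0.21 (SE 0.06, adjusted p = 0.0338). This call was lost in 5 fits that left out 1 mouse (control 3, mutant 1, mutant 3, mutant 5 or mutant 6), where the adjusted p ran from 0.0616 to 0.076. It was also lost without control 4 and mutant 1 (0.0821) and without the background step (0.107). Gstz1, which isomerises maleylacetoacetate in tyrosine breakdown, read 2723 ± 212 and 2453 ± 98.8, with all 6 mutants below the control mean but no call (adjusted p = 0.119). Without control 1 it passed (adjusted p = 0.0494).

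Microsomal transferases sit in intracellular membranes and include enzymes of leukotriene synthesis. Mgst2, which can couple leukotriene A4 to glutathione, ran from 915.6 to 1580.0 in controls (median 1322) and from 1701 to 4055 in mutants (median 2498). No mutant overlapped a control. The mean rose 2.09-fold (log2 difference 0.99, SE 0.19, adjusted p = 0.0055), and mutants 2 (3429) and 4 (4055) lay highest. Mgst3 ran from 4324 to 5761 in controls and from 5639 to 6459 in mutants, with control 4 inside the range of the mutants. Its log2 difference was 0.27 (SE 0.07, adjusted p = 0.0183). That call ended with an offset of 16 (adjusted p = 0.0558). Mgst1, the most studied member in liver, read 3834 ± 537 and 3781 ± 796 (adjusted p = 0.92).

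The alpha class varied more between mice than between groups. Gsta1 and Gsta2 are detoxifying enzymes of enterocytes and hepatocytes that also reduce lipid hydroperoxides. Gsta1 read 134.1, 138.3, 152.9, 458.6, 403.8 and 88.4 in controls 1 to 6, and 32.8, 2247, 43.5, 3460, 422.2 and 435.8 in mutants 1 to 6. Mutants 2 and 4 stood far above all other mice, whereas mutants 1 and 3 lay below every control. The log2 difference of 1.00 had an SE of 0.77 and did not pass (adjusted p = 0.532). Gsta2 had the same high mice, with mutant 2 at 1577 and mutant 4 at 2527, against 82.3 to 368.0 in controls and 120.7 to 428.5 in the remaining mutants. Its log2 difference of 1.54 (SE 0.53) did not pass (adjusted p = 0.0925), but passed without mutant 3 (adjusted p = 0.0343). Gsta3 read 312.6 ± 40.2 and 427.9 ± 132.9 (adjusted p = 0.16), with its highest value in mutant 2 (667.0). Gsta4, which prefers the lipid peroxidation product 4-hydroxynonenal, read 134.1 ± 29.6 and 107.5 ± 64.1 (adjusted p = 0.492), with its highest value in mutant 4 (230.5). Without mutant 4 its lower level in mutants passed (log2 difference -0.41, adjusted p = 0.0394). Since alpha-class transcripts resemble each other, signal in these rows may be shared. The promoters of Gsta1 and Gsta2 are shown because their rows were high in the same mutants. They are at chr9:78230419-78230718 on the plus strand and chr9:78347096-78347395 on the minus strand.
Gsta1: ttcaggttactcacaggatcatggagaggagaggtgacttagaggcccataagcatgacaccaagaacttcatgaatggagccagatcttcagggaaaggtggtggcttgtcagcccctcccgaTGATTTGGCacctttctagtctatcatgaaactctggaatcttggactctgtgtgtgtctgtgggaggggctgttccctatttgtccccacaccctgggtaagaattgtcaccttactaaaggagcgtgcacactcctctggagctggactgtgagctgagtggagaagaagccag
Gsta2: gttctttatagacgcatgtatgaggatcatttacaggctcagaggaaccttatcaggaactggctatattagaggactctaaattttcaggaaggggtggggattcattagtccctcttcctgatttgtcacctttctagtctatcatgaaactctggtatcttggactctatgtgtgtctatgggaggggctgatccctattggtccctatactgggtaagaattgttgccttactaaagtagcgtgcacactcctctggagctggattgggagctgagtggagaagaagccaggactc
Of 311 aligned columns 232 were identical (74.6%), and the loose element occurs at -126 in Gsta1 and not in this window of Gsta2.

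The order of the mutants was then counted over all transferases, which was decided after the alpha rows were seen. Mutants 2 and 4 were the highest pair of the 6 mutants in 12 of 23 transferase rows (52.2%), namely Gsta1 to Gsta4, Gstm1, Gstm3, Gstm4, Gstm6, Gsto2, Gstp2, Mgst1 and Mgst2. These include the 4 alpha rows that prompted the count, Gstm3, which lay within the noise limit, and Gsto2, whose mutants all did. Outside the alpha class the count was 8 of 19 (42.1%). Over all 18090 rows this was so in 9.7%, and over the 51 members that are not transferases in 10 (19.6%). The 18090 include 7888 rows with both means within the noise limit, but the transferases only 2. The share over rows above the limit was not counted, so 9.7% is not a matched reference. In the 96 rows of the 4 lists described further on it was 22 (22.9%). The same mutants had the lowest sums of Paneth, neutrophil and fibroblast markers, and this was not so for every list: the erythroid sum was highest in mutant 4 (24096), and the enterocyte sum was 70734 in mutant 2, the lowest mutant, and 79057 in mutant 4. The summed level of the 13 Paneth cell markers was lowest in mutant 4 (45121) and mutant 2 (71918). It ran from 102469 to 127074 over the remaining mutants and from 6901 to 17149 over the controls. The 12 neutrophil markers summed to 3565 in mutant 4 and 5186 in mutant 2. They summed to 9561 to 13595 in the remaining mutants and to 402.0 to 537.0 in controls. Of these 12 rows 6 rose and none fell, where 9.19% of all rows passed. Another 5, Mpo, Csf3r, Mmp8 and the rows ELA2 and IL8RB, lay within the noise limit in every mouse. The part of these cells in the transferase levels was not tested. Mutants 2 and 4 also lay nearest the controls on the first principal component, the axis of largest variance over all rows (39.1%). They scored 10.69 and 10.73 there, the other mutants 18.44 to 27.85 and the controls -22.27 to -14.24.

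**Figure D3:**
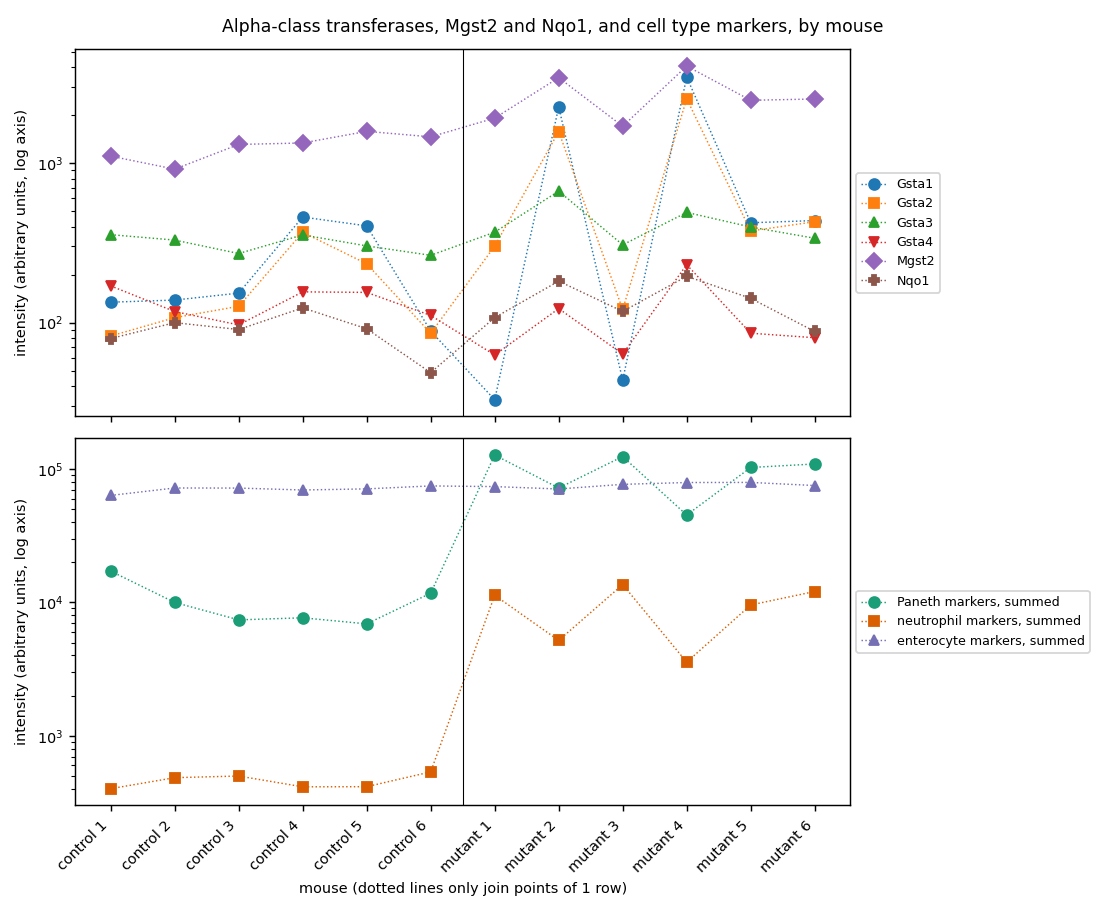
Deposited intensity by mouse on a log axis, with alpha-class transferases, Mgst2 and Nqo1 in the upper panel and summed Paneth, neutrophil and enterocyte markers in the lower one. Gsta1 and Gsta2 peak in mutants 2 and 4, the mutants with the lowest Paneth and neutrophil sums, while the enterocyte sum stays between 63281 and 79201.

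The mu class, cytosolic transferases encoded in a cluster, gave no call among 6 rows. Gstm5 was the brightest, at 2986 ± 867 in controls and 2249 ± 496 in mutants, and all 6 mutants lay below the control mean (log2 difference -0.39, SE 0.18, adjusted p = 0.222). Gstm2 read 2360 ± 300.1 and 2458 ± 406 (adjusted p = 0.873). Gstm1, Gstm4 and Gstm6 read between 113.2 and 396.2 in all mice, with adjusted p from 0.843 to 0.913.

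Of the peroxiredoxins only Prdx4, the form of the endoplasmic reticulum, passed. It ran from 3453 to 4074 in controls (median 3713) and from 4594 to 5982 in mutants (median 4677). The groups did not overlap, and mutant 3 stood above the other mutants. Its log2 difference was 0.38 (SE 0.07, adjusted p = 0.00557). The cytosolic Prdx1 read 4931 ± 480 and 5441 ± 547 (adjusted p = 0.401), and Prdx5, found in mitochondria, peroxisomes and cytosol, read 5122 ± 813 and 4618 ± 520 (adjusted p = 0.498). Prdx2, abundant in red cells, read 3359 ± 585 and 3730 ± 247 (adjusted p = 0.383), while 3 of 15 erythroid marker rows fell and the summed erythroid level went from 23835 to 34351 in controls to 13984 to 24096 in mutants. The mitochondrial Prdx3 read 1635 ± 260 and 1741 ± 110 (adjusted p = 0.645). Prdx6 sat at the noise limit. Srxn1, the sulfiredoxin that repairs over-oxidised peroxiredoxins, read 1128 ± 76.1 and 1191 ± 170.4 (adjusted p = 0.732).

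In the thioredoxin system the fall was in a mitochondrial enzyme. Txnrd2, the mitochondrial thioredoxin reductase, ran from 686.2 to 872.1 in controls (median 775.2) and from 426.6 to 631.4 in mutants (median 574.1). Every mutant lay below every control. The control mean was 1.41-fold that of the mutants, and the log2 difference was -0.44 (SE 0.09, adjusted p = 0.00613). Its substrate Txn2, the mitochondrial thioredoxin, read 522.3 ± 75.7 and 485.5 ± 51.5 (adjusted p = 0.662). The cytosolic thioredoxin Txn1 read 277.2 ± 87.6 and 286.3 ± 44.7 (adjusted p = 0.888). The cytosolic reductase Txnrd1 was at 33.1 ± 2.8 and 36.0 ± 17.1, close to the noise limit, so a difference could hardly be measured there. Txnrd3, a reductase abundant in testis, read 175.5 ± 13.5 and 185.9 ± 27.4 (adjusted p = 0.788). Txnip, which binds and inhibits thioredoxin, read 3363 ± 393 and 2971 ± 383 (adjusted p = 0.299).

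Among the 20 rows of thioredoxin-domain proteins 1 was called. Tmx4 (row TXNDC13), a membrane protein of the endoplasmic reticulum, ran from 1086 to 1281 in controls (median 1224) and from 667.0 to 1075 in mutants (median 883.8). The groups did not overlap, and the log2 difference was -0.43 (SE 0.09, adjusted p = 0.00747). Txndc5, a protein disulfide isomerase, read 1387 ± 129 and 1652 ± 163, with all 6 mutants above the control mean. It did not pass (log2 difference 0.24, SE 0.08, adjusted p = 0.064), though it did without mutant 2 (adjusted p = 0.0379). Txndc15, the brightest of these rows, read 4766 ± 500.2 and 4381 ± 284 (adjusted p = 0.401). The rows TXNL4 and TXNL4A, which stand for the same gene, gave log2 differences of 0.11 and 0.08, neither past the threshold. The other measured rows of the family, Tmx1 (row TXNDC1), Glrx3 (row TXNL2), Txndc9, Txndc11, Txndc12 and Txnl4b, averaged between 58.6 (Txndc9 in controls) and 537.7 (Txndc12 in controls), with adjusted p from 0.134 (Txndc12) to 0.987 (Txnl4b). In 9 of the 20 rows both means lay within the noise limit. Outside the member rows, the row GLRX3 of the gene Glrx3 gave a log2 difference of -0.195 (SE 0.082, limma adjusted p = 0.179). The row TXNL2 of the same gene gave 0.04.

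Sod3, the superoxide dismutase secreted into the extracellular matrix, rose from a low level. It ran from 56.3 to 89.5 in controls (median 69.7) and from 95.3 to 181.7 in mutants (median 107.0), with mutant 3 the highest. No mutant overlapped a control (log2 difference 0.41, SE 0.10, adjusted p = 0.0181), and on the deposited scale the means differed 1.69-fold. The 10 fibroblast markers summed to 14573 to 15752 in controls and 13706 to 21996 in mutants, with mutant 3 highest there as well. Mutant 3 also had the highest neutrophil (13595), macrophage (8785) and smooth muscle (63120) sums, but not the highest sum of any other list. The part of any of these cells in the Sod3 level was not tested. Sod1, the cytosolic enzyme, read 9913 ± 936 and 9720.3 ± 967 (adjusted p = 0.917), and Sod2, the mitochondrial enzyme, 3293 ± 365 and 3395 ± 361 (adjusted p = 0.845). Catalase, the peroxisomal enzyme, varied widely within each group. It ran from 1293 (control 3) to 5091 (control 1) and from 1324 (mutant 4) to 4124 (mutant 1), with nearly the same range in both groups (log2 difference -0.24, SE 0.33, adjusted p = 0.759).

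Glutathione synthesis and the Nrf2 switch gave no call. Glutathione reductase (Gsr) was also named by the rule, but no row bore that name, so it was not read here. Gclm, the modifier subunit of glutamate-cysteine ligase, read 1965 ± 348 and 1809 ± 240.3 (log2 difference -0.10, SE 0.11, adjusted p = 0.682), and Gss read 414.7 ± 60.2 and 443.5 ± 86.8 (adjusted p = 0.778). Gclc, the catalytic subunit, averaged 16.5 and 22.3, so both means lay within the noise limit, and only 3 mice lay above it. Nfe2l2 read 241.3 ± 66.6 and 226.8 ± 60.0 (adjusted p = 0.868) and Keap1 744.7 ± 60.8 and 744.3 ± 67.7 (adjusted p = 0.969). Nqo1, a quinone reductase used as a readout of Nrf2, ran from 48.5 to 123.6 in controls and from 87.9 to 195.0 in mutants. Mutants 2 and 4 were again the highest, and the log2 difference of 0.38 (SE 0.14) did not pass (adjusted p = 0.105), but without mutant 6 it did (adjusted p = 0.0495).

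The promoters of the members were searched for the core antioxidant response element, TGACNNNGC, on either strand. Of the 73 genes, 64 had a promoter in the RefSeq table, and 14 of these held it (21.9%), against 3781 of 27025 genes in all (14%). Among the 13 called genes with a promoter it occurred in Tmx4, which fell, and in no other. The members that held it included Gclm, Srxn1, Prdx1, Txnrd1 and Nfe2l2, none of which was called. The looser TGANNNNGC, which includes every match of the core and was added after the sequences were seen, occurred in 32 of 64 members (50%) and in 45% of all genes. It occurred in 5 of the 13 called genes, Gpx2, Gstp1, Gstt1, Gstt3 and Tmx4.

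Other genes of glutathione and NADPH metabolism were read from 4 lists. The lists were written with earlier results of these data known, so their shares of called rows are not independent of these data. Of 33 rows of glutathione metabolism outside the member rows, 6 rose and 2 fell (24.2%, against 9.19% of all rows). Of the 28 with a group mean above the noise limit 28.6% passed, against 15.7% of all such rows. The 33 include GLRX3, a further row of the member gene Glrx3, which was not called. Idh1, a cytosolic source of NADPH, ran from 3158 to 4346 in controls and from 5588 to 7837 in mutants. The groups were apart, and the log2 difference was 0.78 (SE 0.09, adjusted p = 0.000176). Glo1, the glyoxalase that uses glutathione to clear methylglyoxal, rose from 3890.4 ± 378 to 4855 ± 355 (adjusted p = 0.0181). Cth, which makes cysteine from cystathionine, rose near the noise limit, from 21.5 ± 10.5 to 45.9 ± 8.8 (adjusted p = 0.0133). Ggt5, a gamma-glutamyl transferase that cleaves glutathione conjugates, was read by the rows GGT5 and GGTLA1, which both rose with means of 15 and 36.2 in the former and 16.8 and 34.7 in the latter (adjusted p = 0.0105 and 0.0179), and the call of the row GGT5 ended without the background step (adjusted p = 0.121). Anpep, a brush border peptidase that degrades the products of glutathione breakdown, rose from 10538.5 ± 2163 to 15041 ± 2025 (adjusted p = 0.0398), and the call was lost when any of controls 4 to 6 or mutants 3 to 6 was left out, at 0.0523 to 0.0884, and when the background step was omitted (0.103).

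The 2 that fell were transferase relatives that make lipid mediators. Hpgds (row PTGDS2), the sigma-class transferase that makes prostaglandin D2, had a log2 difference of -1.33 (SE 0.16, adjusted p = 0.000209), with controls from 256.4 to 578.8 and mutants from 57.1 to 143.8. Ltc4s, leukotriene C4 synthase, read 612.1 ± 166.3 and 325.6 ± 89.7 (adjusted p = 0.0153), so it fell while Mgst2 rose. When control 4 and mutant 1 were both left out Ltc4s did not pass (adjusted p = 0.0583), nor when the background step was omitted (0.0573).

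Of 38 rows of other Nrf2 targets, 6 rose and 1 fell (18.4%, against 9.19% of all rows). Of the 29 with a group mean above the noise limit 24.1% passed, against 15.7% of all such rows. Akr1b8, an aldo-keto reductase, ran from 39.6 to 78.9 in controls and from 157.4 to 197.3 in mutants. The groups were far apart on this scale, with a log2 difference of 0.94 (SE 0.07, adjusted p = 3.69e-06). The dehydrogenases of the pentose phosphate pathway, which supply NADPH, rose together: Pgd from 3962 ± 416 to 5698 ± 837 (adjusted p = 0.00708) and G6pdx from 195.9 ± 15.9 to 279.8 ± 50.3 (adjusted p = 0.0148). Nqo2, a quinone reductase, rose from 539.5 ± 32.3 to 695.8 ± 72.7 (adjusted p = 0.00611). Ugt1a10, a glucuronosyltransferase, rose from 3799 ± 909 to 5434 ± 682 (adjusted p = 0.0265), a call lost when controls 2, 3 and 6 or mutants 1, 3, 4 and 5 were left out singly, at 0.0502 to 0.0528, and when the background step was omitted (0.0759). Hmox1, haem oxygenase, went from 119.5 ± 24.7 to 211.4 ± 78.7 (adjusted p = 0.048) and lost its call in 10 of 12 fits that left out 1 mouse, all but those without control 1 or mutant 4 (adjusted p 0.0604 to 0.106). The call also ended without the background step (adjusted p = 0.113). Mafg, a small partner protein of Nrf2 that is also in the list of 12 Nrf2 regulators, fell from 2080 ± 392 to 1500 ± 237 (adjusted p = 0.0421). Leaving out any of controls 1, 3, 5 and 6 or of mutants 1 to 4 took the call away, at 0.0532 to 0.0913, as did omitting the background step (0.103). It was the only row of the regulator list to pass (8.33%), a share near that of all rows. Among regulator rows with a group mean above the noise limit the share was 11.1%, against 15.7% of all such rows. In the list of selenoproteins and their synthesis 1 of 18 rows fell (5.56%, under the 9.19% of all rows that passed). Among those with a group mean above the noise limit the share was 7.14%. The row that fell was Dio1, a deiodinase of thyroid hormone, with controls from 1320 to 1775 and mutants from 744.6 to 1198 (log2 difference -0.59, SE 0.10, adjusted p = 0.0029).

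**Figure D4:**
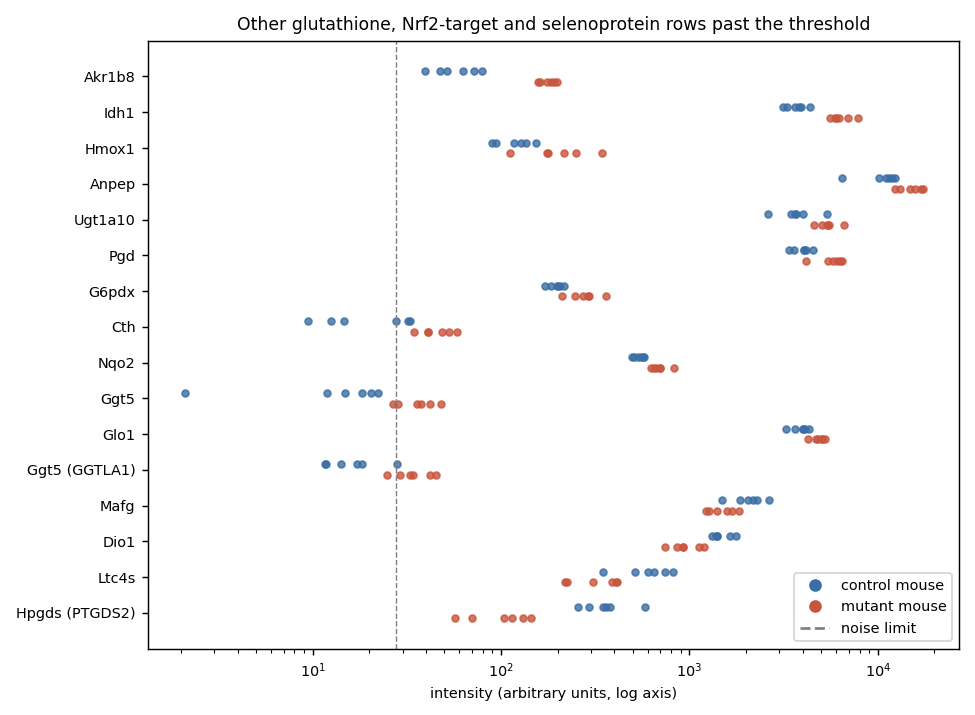
Deposited intensity by mouse (log axis, controls blue and mutants red) for the rows of the 4 lists that passed the threshold, ordered by log2 difference. Akr1b8 at the top and Hpgds at the bottom have fully separate groups, and both Ggt5 rows lie around the noise limit of 27.8.

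Marker levels of other cell types were as follows beside these results. Since 9.19% of all rows passed, 1 called marker of 8 to 17 is near the share of any rows. All 13 Paneth markers were above noise in at least 1 mouse and 12 of them rose. The part of Paneth cells in the rise of Gpx2, whose lowest mutants were those with the lowest Paneth sums, was not tested. The same mutants lay nearest the controls on the first principal component of all rows. Of 12 macrophage markers 2 rose and 2 fell, with sums of 5792 to 7393 in controls and 6037 to 8785 in mutants. The 8 endothelial markers summed to 3734 to 5015 in controls and 3186 to 3834 in mutants, and 2 fell. Of 11 enterocyte markers 2 rose, with sums of 63281 to 74554 and 70734 to 79201. Anpep is among these risers and in the sums, and is also counted in the glutathione list, so the readouts are not separate. Of the 12 liver markers 8, among them Afp and Ahsg, were within the noise limit in every mouse, as were 5 of the 6 adipocyte markers, and 2 of the liver markers fell. Of 6 goblet cell markers 2 rose and 1 fell, 1 of 10 smooth muscle markers and 1 of 10 fibroblast markers rose, 1 of 8 markers of enteric neurons and glia fell, and 1 of 17 acinar markers rose.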

How the data were processed

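Total RNA from a whole piece of proximal small intestine of 12 mice was read on a 1-colour Illumina array after biotin labelling, per the labels' protocols. Group and replicate number come from the sample titles. The authors deposited intensities on a linear scale, 1 per gene symbol. The tools named per the submitters' processing notes are Partek and GenomeStudio. Their roles, the array version and the genome build are not given in the sources used here. Of the deposited intensities 22.5% lie below 0 and array medians run from 41.8 to 43.4, so background had been subtracted and the arrays brought to nearly 1 distribution. A further table with 24 columns whose headings match no sample was not used.

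The intensities of all 18090 rows were corrected by normexp with an offset of 50, then quantile normalized and log2 transformed, and mutant was compared with control by limma 3.58.1 in R 4.3.3 (lmFit, eBayes, a two-sided test of group with no other term, Benjamini-Hochberg adjustment over the whole table). The offset shrinks differences of dim rows, and quantile normalization hides a shift of all rows. No rows were filtered. The fit was tested on simulated data. Precision is limited by how many arrays there are. The labels number the mice but do not say that each array is a separate litter or day. Alternatives were an offset of 16, no normexp with a floor at the noise limit, no quantile step, trend and robust variances, array weights, dim rows left out, the replicate number as a block, each mouse left out, and control 4 and mutant 1 left out. A covariate for sex, read from the Y-linked row Eif2s3y, was added after seeing the data. Correlations of deviations between same-numbered samples ran from -0.11 to 0.266, with 0.265 for number 3 and 0.266 for number 6. Differently numbered samples were not correlated for reference, so these values cannot decide whether same numbers mark pairs. The main fit did not treat them as pairs, and the replicate block did.

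The members, lists and tests were chosen with earlier results of these data known. The rule named all called members, the 2 brightest of each family and up to 6 called rows of each list. Other members above the noise limit are also given, by mean or range, and were run under every alternative. Of the 74 rows, 65 matched a current symbol and 9 a synonym in the gene table of GRCm38.p6.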

Additional observations from a re-analysis of the deposited data

Results flagged for a closer look

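Among the members with a group mean above the noise limit, 116 groups of 6 mice were looked at for a mouse whose gap to its nearest neighbour, as a share of the group's range, was above Dixon's critical value, which chance gives in about 1 of 20 groups. There were 7 such values, where that rate gives about 5.8. Control 1 was high for Gstk1, at 1446 against 894.1 to 1048 in the other controls, and for Gsto2, at 52.9 against 31.4 to 35.9. Mutant 3 was high for Prdx4, at 5982 against 4594 to 4946 in the other mutants, and for Sod3, at 181.7 against 95.3 to 124.8. Mutant 2 was high for Txnrd1, at 68.0 against 21.3 to 38.6. Mutant 4 was high for Gsta4, at 230.5 against 62.6 to 122.3. Mutant 5 was high for Gss, at 609.7 against 351.8 to 437.2. The calls of Gstk1, Prdx4 and Sod3 held in every fit that left out 1 mouse.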

How the results depend on the processing

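Of the 14 called members, 12 kept their direction and their call in all 21 alternatives, the exceptions being Gsto2 and Mgst3. The number of members called was 13 to 16 when 1 mouse was left out, 13 without control 4 and mutant 1, and 16 with the replicate number as a block (replicate block, 13 higher and 3 lower), where Gsta2, Txndc5 and Nqo1 passed (adjusted p = 0.0328, 0.0215 and 0.00586) and Gsto2 did not (0.062), nor did Mafg of the lists (0.0598). With the replicate block the whole table gave 1702 calls. Gsto1 passed with array weights (adjusted p = 0.041). Without the background step all calls fell to 1004 (523 higher, 481 lower), while 13 members were still called, and the calls of the 4 lists fell from 16 to 9 (7 higher, 2 lower). The cause was not tested. The lists had 8 lower calls with array weights, and 12 to 18 calls, of which 3 to 7 lower (7 without mutant 2), when 1 mouse was left out. Leaving out 1 mouse gave 1247 to 1694 calls over all rows. With sex as a covariate 14 members passed.

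Among the 59 members with a mean above the noise limit the sign changed in 14, and none of the 14 was called. Leaving out 1 mouse gave log2 differences from -0.014 to 0.126 for Gss, -0.172 to 0.03 for Gstm1, -0.034 to 0.1 for Gstm2, -0.067 to 0.098 for Gstm4, -0.237 to 0.018 for Gstm6, -0.163 to 0.008 for Gstp2, -0.022 to 0.096 for Gstt2, -0.031 to 0.034 for Keap1, -0.113 to 0.058 for Mgst1, -0.159 to 0.024 for Nfe2l2, -0.07 to 0.022 for Sod1, -0.035 to 0.149 for Txn1, -0.047 to 0.03 for Txnl4b and -0.047 to 0.069 for Txnrd1. Keap1 gave -0.021 with array weights and -0.001 without the quantile step. Without control 4 and mutant 1, Gstm1 gave 0.085, Gstm6 0.009, Gstt2 -0.007, Mgst1 0.036 and Nfe2l2 0.008. The cause was not tested. Rows near the noise limit (Gclc, Prdx6, Txnrd1) limit what could be measured.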
